A study of Mus musculus with 16 samples.

Results

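The 8 genes described here, Trdc, Trdv4, Cd3d, Cd3e, Cd3g, Cd247, Klrk1 and Il2rb, encode the receptor apparatus of dendritic epidermal T cells, and were taken by gene symbol from the 50600 gene identifiers of a table of raw RNA-seq read counts from mouse epidermal cells. All 8 had enough reads to be tested, among 22155 genes tested. Female C57/B6J mice ate a purified diet from 5 wk of age for 3 wk, either as it was, poor in ligands of the aryl hydrocarbon receptor AhR (AhR-poor diet, labelled SYNTH), or with 200 ppm indole-3-carbinol, a plant compound that gives rise to AhR ligands (I3C diet). The footpad was injected with 50 µl of vehicle (PBS) or of vehicle with 50 µg papain, a cysteine protease used as a model allergen, and epidermal cells were taken 6 hr later. Each of the 4 combinations of diet and injection had 4 libraries, named below by the library codes T100 to T115 in the sample titles. Mice on the same diet shared a cage, so diet and cage cannot be told apart, and nothing in the labels ties a library to a litter or day, so p-values measure the spread between these libraries.

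Dendritic epidermal T cells are gamma delta T cells that settle in the mouse epidermis before birth and stay there, with arms reaching between keratinocytes. Nearly all of them carry the same receptor, in which a gamma chain with the segment Tcrg-V5 pairs with a delta chain with the segment Trdv4. The receptor reaches the surface and signals only together with the CD3 chains and the zeta chain encoded by Cd247. Other T cells carry these chains too, so Cd3d, Cd3e, Cd3g and Cd247 do not mark dendritic epidermal T cells alone. The cells also carry NKG2D, encoded by Klrk1, a receptor for stress ligands on keratinocytes, and need interleukin 15, which signals through the beta chain shared with the interleukin 2 receptor, encoded by Il2rb. AhR is known to be needed for these cells to persist in the skin.

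The 2 variable segments identify the cells, so the 3′ ends of their annotated transcripts are shown, 5′ to 3′, each the last 90 bases, with the longest run that both share (13 bases) in capitals. The run lies near the end of each segment, just before the place where it is joined to the next segment of the receptor. Trdv4 lies on the + strand at chr14:54074905-54075515, and Tcrg-V5 on the + strand at chr13:19192278-19192725 (GRCm38, GENCODE M21).
Trdv4: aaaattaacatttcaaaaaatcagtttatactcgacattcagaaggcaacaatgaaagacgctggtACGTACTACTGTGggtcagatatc
Tcrg-V5: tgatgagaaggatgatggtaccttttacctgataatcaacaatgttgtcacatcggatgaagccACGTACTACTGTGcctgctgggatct

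Cd3d and Cd3g stand head to head on chromosome 9. Cd3d (chr9:44981786-44987339, + strand) and Cd3g (chr9:44969572-44980431, - strand) start 1355 bases apart, and Cd3e (chr9:44998740-45009627, - strand) starts 27841 bases from the start of Cd3d. The promoters of this neighbouring pair are shown because of their position. Whether these genes moved together more than the rest of the 8 was not tested. RefSeq promoters, 300 bases that end 50 bases past the start, were matched for 5 of the 8 genes (Cd3d, Cd3e, Cd3g, Cd247 and Klrk1). Capitals mark the core GGAA of ETS factors on either strand.
Cd3d, chr9:44981536-44981835, + strand: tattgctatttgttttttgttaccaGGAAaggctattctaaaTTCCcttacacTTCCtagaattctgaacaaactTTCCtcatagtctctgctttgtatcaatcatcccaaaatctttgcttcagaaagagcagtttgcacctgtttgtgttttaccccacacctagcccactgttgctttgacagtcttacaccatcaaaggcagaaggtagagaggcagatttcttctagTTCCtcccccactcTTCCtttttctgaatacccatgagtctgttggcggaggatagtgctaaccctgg
Cd3g, chr9:44980382-44980681, - strand: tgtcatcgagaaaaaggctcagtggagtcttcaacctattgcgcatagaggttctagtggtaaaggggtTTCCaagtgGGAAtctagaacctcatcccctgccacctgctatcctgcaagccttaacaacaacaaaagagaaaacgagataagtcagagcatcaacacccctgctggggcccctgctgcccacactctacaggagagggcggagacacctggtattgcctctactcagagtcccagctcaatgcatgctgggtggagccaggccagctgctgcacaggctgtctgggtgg
The AhR core GCGTG, read on both strands, was in 0 of the 5 promoters and in 32.4% of all 32851 RefSeq mouse promoters. The core GGAA was in 5 of 5 and in 96.0% of all promoters, and the RUNX core TGTGGT was in 1 of 5, that of Klrk1, and in 16.8% of all. A match is a description of these windows only. The other genes are Trdc (chr14:54142851-54148868, + strand), 67946 bases from the start of Trdv4, Klrk1 (chr6:129610323-129623864, - strand), Il2rb (chr15:78479256-78495271, - strand) and Cd247 (chr1:165788681-165877277, + strand). In Cd247, 3007 of 5329 exon bases overlap genes on the opposite strand (Gm16565 and Pou2f1) and 206 overlap on the same strand. Whether the counting used strand is not given in the sources used here, so the values of Cd247 are uncertain to that extent.

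Library totals ran from 22500821 to 51844375 counts, and levels are given as CPM, read counts brought to the same scaled library total in every library. A count of 3 corresponded to 0.0579 to 0.1333 CPM. The 8 genes were low but measurable in every library, with 13 to 1364 counts each. Per kb of exon, Trdv4 had the highest mean level over the 16 libraries (5.80 CPM per kb), followed by Il2rb (2.79), Trdc (2.73), Cd3g (1.70), Cd3e (0.947), Cd3d (0.630), Cd247 (0.484) and Klrk1 (0.416). The order of Il2rb and Trdc did not hold across libraries, since Il2rb was the higher in 9 of 16, and that of Cd247 and Klrk1 held in 11 of 16. Each of the other neighbouring pairs kept its order in at least 15 of 16 libraries.

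Trdc encodes the constant region of the delta chain. On the I3C diet it measured 5.77, 8.11, 6.31 and 5.22 CPM with vehicle (T108 to T111) and 13.1, 5.74, 5.48 and 4.40 CPM with papain (T106, T113, T114 and T115). On the AhR-poor diet it measured 12.9, 11.8, 10.9 and 7.51 CPM with vehicle (T100 to T103) and 14.0, 25.9, 22.4 and 9.0 CPM with papain (T104, T105, T107 and T112). The diet groups overlapped with vehicle, where T103 (AhR-poor) lay below T109 (I3C), and with papain, where T106 stood above the rest of its group and T112 below the rest of its group. Trdv4, the variable segment, had the same pattern. With papain it measured 3.56, 1.70, 1.60 and 1.19 CPM on the I3C diet and 3.96, 5.96, 4.76 and 1.52 CPM on the AhR-poor diet, against group means with vehicle of 1.64 ± 0.555 and 2.59 ± 0.713 CPM (SD, n = 4 each).

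The CD3 chains carry the signalling motifs that flank the receptor. Cd3d, the delta subunit, measured 0.747, 0.994, 0.734 and 0.660 CPM on the I3C diet with vehicle and 1.02, 0.417, 0.599 and 0.497 CPM with papain. On the AhR-poor diet Cd3d measured 1.66, 1.83, 1.21 and 0.563 CPM with vehicle and 2.09, 2.52, 1.99 and 0.761 CPM with papain. Apart from T103 and T112, every AhR-poor library lay above all I3C libraries for this gene. Cd3e, the epsilon subunit, ranged with papain from 1.32 to 5.26 CPM on the I3C diet and from 2.86 to 8.35 CPM without the compound. Cd3g, the gamma subunit, ranged from 2.03 to 6.62 and from 5.44 to 13.5 CPM in the same groups. Cd247, the zeta chain, measured 1.32, 2.55, 1.69 and 1.5 CPM on the I3C diet with vehicle and 2.31, 1.15, 1.23 and 1.02 CPM with papain. On the AhR-poor diet Cd247 measured 4.25, 3.36, 3.46 and 1.96 CPM with vehicle and 3.64, 5.46, 4.46 and 1.93 CPM with papain. The groups on the different diets overlapped only through T103, T109, T106 and T112.

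Klrk1 encodes NKG2D. It measured 2.50, 2.32, 1.66 and 1.14 CPM on the I3C diet and 2.83, 4.53, 3.24 and 3.06 CPM on the AhR-poor diet in the vehicle groups. These 2 groups did not overlap. With papain Klrk1 ranged from 1.07 to 3.21 CPM on the I3C diet and from 2.20 to 7.09 CPM on the AhR-poor diet, and the groups overlapped. Il2rb, the receptor chain for interleukins 2 and 15, was the least different between the diets with vehicle, with 11, 8.95, 6.31 and 6.36 CPM on the I3C diet and 10.2, 10.6, 8.83 and 10.03 CPM in the AhR-poor group. With papain Il2rb measured 16.8, 10.9, 10.3 and 8.41 CPM on the I3C diet and 18.1, 23.2, 20.6 and 10.4 CPM on the AhR-poor diet. All but T112 of the AhR-poor papain libraries lay above all I3C libraries.

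**Figure D1:**
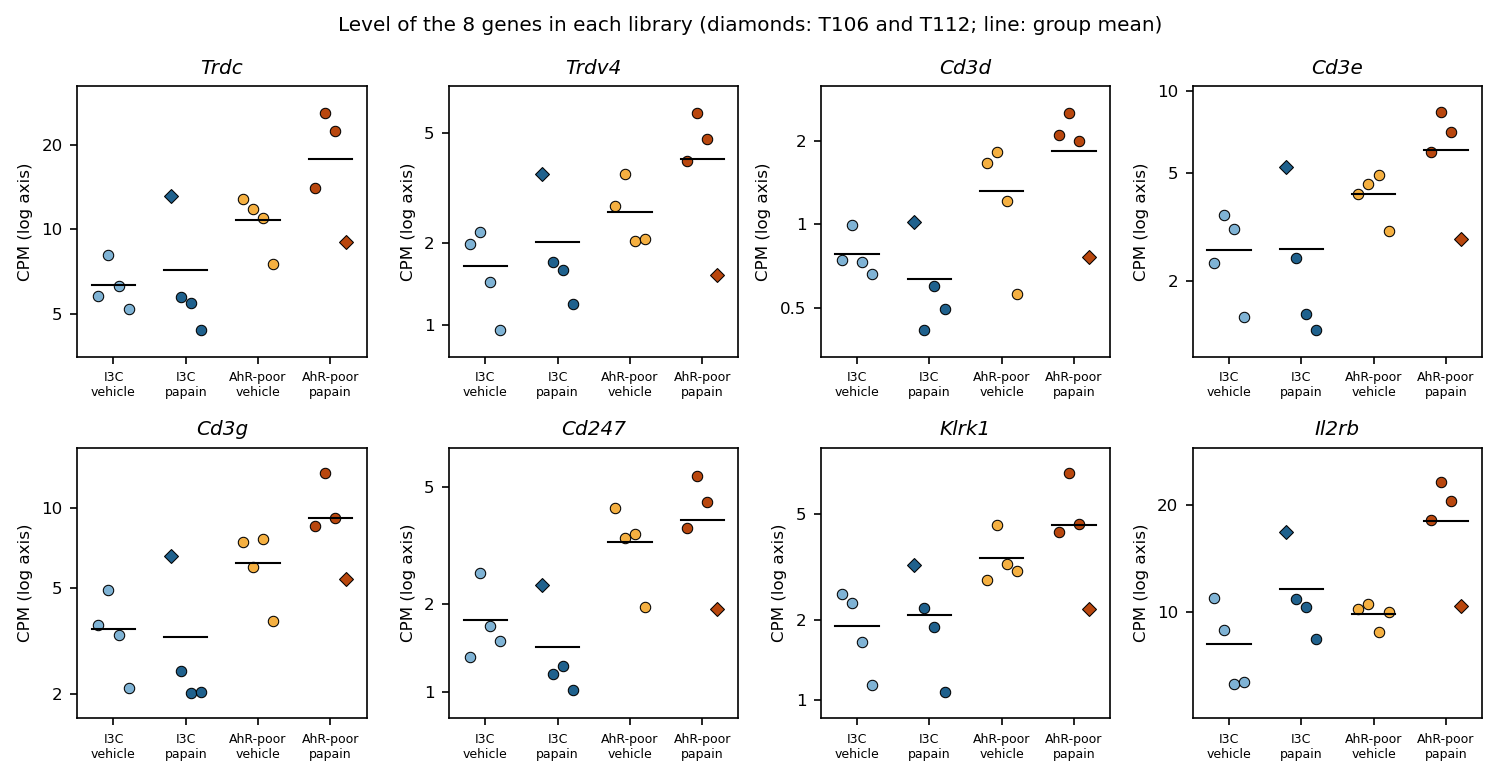
CPM of each of the 8 genes (vertical log axis) in the 16 libraries by group, with 1 point a library, a line at the group mean and diamonds for T106 (I3C diet, papain) and T112 (AhR-poor diet, papain). For all 8 genes T106 is the highest of its group and T112 the lowest of its group.

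Counts on variable segments checked the identity of the gamma delta T cells. Of the counts on 6 delta variable segments, 1577 of 1586 fell on Trdv4 (99.4%, Wilson 95% interval 98.9 to 99.7), and in single libraries the share was between 97.0% and 100.0%. Segments of the alpha locus that can also join to delta were not counted. Of the counts on 7 gamma variable segments, 681 of 838 fell on Tcrg-V5 (81.3%, interval 78.5 to 83.8), with 67.6% to 93.8% in single libraries. These intervals cover counting error only. By group the Tcrg-V5 share was 85.4% (78.3 to 90.4) and 84.6% (77.9 to 89.5) on the I3C diet with vehicle and papain, and 81.0% (75.4 to 85.5) and 78.4% (73.6 to 82.5) on the AhR-poor diet, so the intervals overlapped. Among the gamma constant genes, Tcrg-C1, the partner of Tcrg-V5, had 2219 counts over all libraries, against 263 for Tcrg-C2, 1 for Tcrg-C3 and 331 for Tcrg-C4. Of 100-base windows of Tcrg-C1, 8.24% occur also in Tcrg-C2 or Tcrg-C3. Among 12 tested gamma and delta receptor segments besides the 8 genes, 0 were called in any comparison by edgeR. An unadjusted p below 0.05 was found for 7 of them between the diets with papain and for 1 with vehicle. The share of all genes at this limit was not counted.

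Genes of alpha beta T cells were compared with the delta chain per kb of exon. Trac, the alpha constant gene, stayed between 0.174 and 1.35 CPM (7 to 67 counts). In each group the median library had at least 2.14 times as much Trdc as Trac per kb. The beta constant gene Trbc2 went the other way. Its group means were 18.76 and 46.01 CPM per kb on the I3C diet with vehicle and papain, against 1.644 and 1.858 for Trdc. On the AhR-poor diet they were 22.59 and 41.4, against 2.786 and 4.614. Trbc1, the other beta constant gene, had 2.598 and 1.635 on the I3C diet and 4.078 and 5.079 on the AhR-poor diet. It was below Trdc only on the I3C diet with papain. Cd4 reached at most 0.714 CPM and Cd8a at most 0.419 CPM. Trbc2, a beta constant gene, was at 13.0 ± 1.90 CPM with vehicle and 31.8 ± 3.90 CPM with papain on the I3C diet (SD, n = 4 each), a log2 fold change of 1.29 ± 0.13 (SE, adjusted p = 2.38e-07). On the AhR-poor diet Trbc2 was at 15.6 ± 1.87 and 28.6 ± 4.03 CPM, a log2 fold change of 0.87 ± 0.13 (adjusted p = 2.8e-05), under the 2-fold limit of a call. Trac did not pass the test in either comparison (log2 fold change -0.53 and 0.65, adjusted p = 0.313 and 0.176). Counts of Trbc2 were 44.5 to 180.3 times those of Trac in the I3C papain libraries and 15.5 to 28.5 times in the I3C vehicle libraries, and 18.3 to 80.1 and 20.9 to 24.8 times in the AhR-poor papain and vehicle libraries, which overlapped. Trbc1 and Trbc2 are near copies, with 28.2% of the 100-base windows of Trbc1 found in Trbc2, so reads between them are uncertain.

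**Figure D2:**
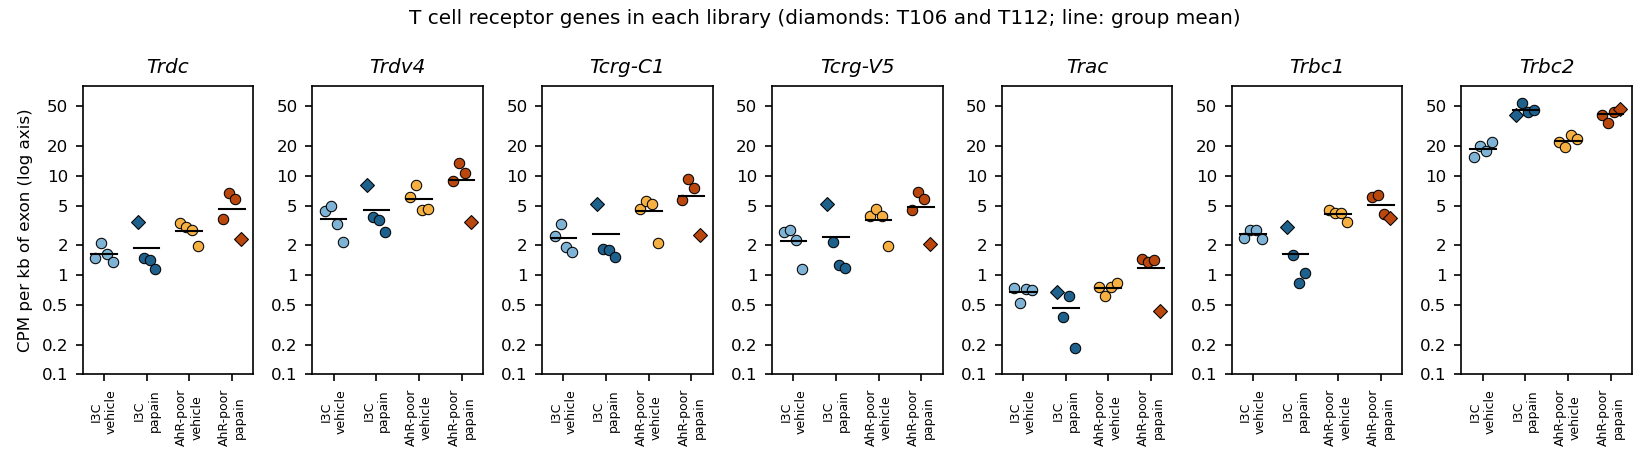
CPM per kb of exon (vertical log axis) of the delta genes Trdc and Trdv4, the gamma genes Tcrg-C1 and Tcrg-V5, the alpha gene Trac and the beta genes Trbc1 and Trbc2 in each library by group, with a line at the group mean and diamonds for T106 and T112. The delta and gamma genes share a pattern in which T106 is high and T112 low, while Trbc2 lies higher with papain on both diets, with group means of 46.0 and 41.4 CPM per kb against 18.8 and 22.6 with vehicle.

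The first question was what papain did to the genes on each diet. A gene was called when its adjusted p in an edgeR quasi-likelihood fit of all 16 libraries was below 0.01 and its fold change above 2 (1 on the log2 scale). For the AhR-poor diet 0 of the 8 genes were called, where 6.04% of all genes tested were called higher, and 1 had an unadjusted p below 0.05. That gene was Il2rb, with 9.92 ± 0.758 CPM with vehicle and 18.1 ± 5.50 CPM with papain (SD, n = 4 each). Its log2 fold change was 0.87 (95% interval 0.35 to 1.39, adjusted p = 0.012). The other log2 fold changes were between 0.25 for Cd247 and 0.73 for Trdc, and the median over the 8 genes was 0.55, against -0.00 over all genes. DESeq2 called 0 of the 8. Without T112, Il2rb was called (log2 fold change above 1), where 6.59% of all genes were.

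On the I3C diet, again 0 of the 8 were called by edgeR or DESeq2, 0 had an unadjusted p below 0.05, and 3.69% of all genes were called higher. Log2 fold changes ran from -0.30 for Cd247 to 0.51 for Il2rb (interval -0.01 to 1.04, adjusted p = 0.125), with a median of 0.08 against -0.04 over all genes. For Trdc the difference was 0.18 (interval -0.60 to 0.96) and for Cd3e 0.02 (interval -0.87 to 0.91), and without T106 these values were -0.30 and -0.58.

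The second question was whether the diets differed. With vehicle, all 8 genes had the higher group mean on the AhR-poor diet, by log2 fold changes of 0.28 (Il2rb) to 0.88 (Cd247). The median was 0.75, a fold of 1.68, against -0.01 over all genes. None was called by edgeR or DESeq2, where 1.59% of all genes were called higher, and 2 of the 8 had an unadjusted p below 0.05. These were Cd247 (adjusted p = 0.217) and Klrk1 (log2 fold change 0.84, interval 0.11 to 1.57, adjusted p = 0.299). Klrk1 was the 1 gene of the 8 whose groups did not overlap, which gave the smallest p an exact two-sided permutation test of 4 against 4 libraries can give (0.0286), and 6.45% of all genes had every AhR-poor library above every I3C library.

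With papain, the genes Cd247 and Cd3d, 2 of the 8, were called higher on the AhR-poor diet, where 7.15% of all genes tested were called higher. Both encode chains that other T cells carry too, and which cells their reads come from was not tested. The delta chain genes Trdc and Trdv4 were not called. All 8 had unadjusted p below 0.05 and 5 had adjusted p below 0.05. The shares of all genes at these looser limits were not counted, so these numbers have no background. Cd247 went from 1.43 ± 0.596 CPM on the I3C diet to 3.87 ± 1.49 CPM on the AhR-poor diet (SD, n = 4 each), a log2 fold change of 1.43 (interval 0.74 to 2.13, adjusted p = 0.00479). Cd3d went from 0.634 ± 0.270 to 1.84 ± 0.756 CPM, a log2 fold change of 1.52 (interval 0.73 to 2.32, adjusted p = 0.00777). For Cd3g the log2 fold change was 1.48 (adjusted p = 0.0157), for Trdc 1.31 (0.0185) and for Klrk1 1.12 (0.0277). For Cd3e it was 1.2 (0.0502), for Trdv4 1.0 (0.0795) and for Il2rb 0.64 (0.0788). The median corresponded to a fold of 2.38, and over all genes the median log2 fold change was 0.01. In 0 of the 8 genes did the groups stand apart, where 12.5% of all genes had every AhR-poor library above every I3C library. The exact permutation p of Cd3d was 0.0571. DESeq2 called 5 of the 8 and 7.75% of all genes, and a fit of only the 8 papain libraries called 0 of the 8 and 6.27% of all. Since these are whole epidermal preparations, fewer cells of a type and less RNA per cell cannot be told apart.

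The difference between the diets in the response to papain was tested as an interaction. It was positive for all 8 genes, from 0.28 (Klrk1, -0.03 without T105) to 0.78 (Cd3d) on the log2 scale, and 0 of the 8 were called by edgeR or DESeq2 or had an unadjusted p below 0.05, with 0.0181% of all genes called higher. The interval for Trdc was -0.53 to 1.63. Averaged over both injections, a comparison added after the values were seen, 3 of the 8 genes were called higher on the AhR-poor diet (Cd247, Cd3d and Cd3g), where 6.45% of all genes were, and the log2 fold changes ran from 0.46 for Il2rb to 1.16 for Cd247. Of these calls only that of Cd247 was left without T110, T111, T113, T114, T115, T100, T101, T104, T105 or T107, each left out alone. Without T106 there were 7 calls, without T112 5, and with the library number described below as a term 0. The share of all genes called in each of these fits is not given here, so these counts have no background.

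**Figure D3:**
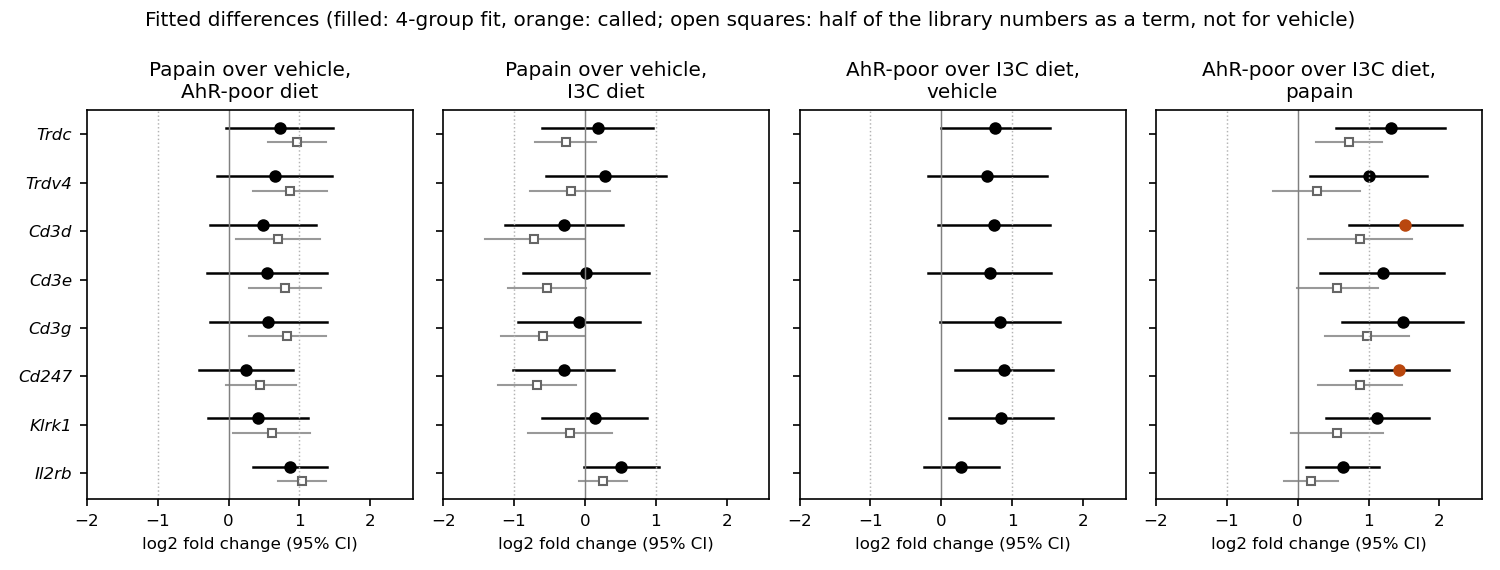
Log2 fold changes of the 8 genes with 95% intervals (horizontal axis) in the 4 comparisons, where filled points are the fit of 4 groups, orange ones are called, and open squares come from the fit that also has the library number (earlier 8 against later 8 codes) as a term. With papain all filled points for the diets lie above 0 and the open squares lie closer to 0, and no squares are drawn for the diets with vehicle, where diet and library number coincide.

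The libraries T106 and T112 carried much of the spread. T106 was the highest of its group in 8 of 8 genes and T112 the lowest of its group in 8 of 8, and T112 lay below T106 in 8 of 8. Without T106, 7 of the 8 genes were called higher on the AhR-poor diet with papain (8.1% of all genes tested in that fit), and without T112 5 were (7.61% of all). Without both of them 8 were called (8.49% of all). The remaining AhR-poor papain libraries then lay above the remaining I3C papain libraries in all 8. T106 and T112 were the libraries that made these groups overlap, and the share of all genes set apart in this way was not counted. Without any single 1 of the other papain libraries (T113, T114, T115, T104, T105 or T107) 0 were called, and without the vehicle library T102 1 was. The share of all genes called in these fits is not given here, so these counts have no background. Leaving out both together was chosen after the values were seen. Col1a1, a collagen gene of fibroblasts, was at 2.41 CPM in T106 and 44.1 CPM in T112, against 0.599 to 1.98 CPM in the other I3C libraries and 20.3 to 115.4 CPM in the other AhR-poor libraries.

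The codes of the libraries run with the groups. All AhR-poor vehicle libraries have codes among the earlier 8 (T100 to T107) and all I3C vehicle libraries among the later 8 (T108 to T115). Of the papain libraries, T106 is the 1 I3C library with an earlier code and T112 the 1 AhR-poor library with a later code. Neither the labels nor the methods say what the codes stand for, and which of the 3 sequencing units each library was run in is not given. Among the earlier codes, all 3 AhR-poor papain libraries lay above T106 in 8 of 8 genes. Among the later codes, T112 lay above all 3 I3C papain libraries in 5 of 8. These orders of 3 libraries against 1 were not counted over all genes, so nothing is read from them about the diets. The library number was then put in the fit as a term, a choice made after the values were seen and resting on T106 and T112. With it, all 8 genes were lower in the later codes, with unadjusted p below 0.05 (share of all genes at this limit not counted). Of them Trdc was called (log2 difference -1.27, adjusted p = 0.00731), where 0.343% of all genes were called in either direction, and Ptprc, which marks leukocytes, was among those called lower. In that fit 0 of the 8 and 4.83% of all genes were called higher between the diets with papain, with log2 fold changes of 0.19 (Il2rb) to 0.98 (Cd3g), 0.73 for Trdc (interval 0.26 to 1.19, adjusted p = 0.0449) and 0.88 for Cd247 (interval 0.28 to 1.47, adjusted p = 0.0591). Papain on the AhR-poor diet then gave 0.45 (Cd247) to 1.03 (Il2rb), and Il2rb was called (adjusted p = 6.24e-05), where 6.59% of all genes were. In the vehicle libraries, diet and library number cannot be told apart, so this fit gives no test of the diets with vehicle.

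Other cells of the preparation moved with the diets in the same libraries. Ptprc, which encodes the leukocyte antigen CD45, was at 7.37 ± 0.910 and 9.81 ± 4.65 CPM on the I3C diet with vehicle and papain, and at 14.99 ± 1.31 and 45.5 ± 22.7 CPM on the AhR-poor diet (SD, n = 4 each). Between the diets with papain its log2 fold change was 2.21 (adjusted p = 0.000623), larger than that of any of the 8 genes. In the same comparison the lists of marker genes called higher were 12 of 12 for dermal fibroblasts, 9 of 9 for endothelial cells, 5 of 5 for blood, 7 of 7 for mast cells, 8 of 10 for monocytes and macrophages, 7 of 12 for neutrophils and 3 of 12 for Langerhans cells. With vehicle they were 12, 8, 5, 1, 2, 0 and 0. The summed level of the fibroblast list was 2.34 to 12.3 CPM for I3C with papain and 302.8 to 775.0 CPM for AhR-poor with papain, and with vehicle 10.5 to 13.8 against 111.6 to 200.8 CPM. For the neutrophil list the sums with papain were 107.2 to 150.5 against 155.2 to 479.7 CPM. The basal keratinocyte list, at 24010.6 to 26779.1 against 21069.2 to 25764.0 CPM with papain, had 0 of 7 genes called between the diets. The part of these cells in the differences of the 8 genes was not tested.

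Relative to Ptprc, the 8 genes moved as most genes did. The ratio of Trdc counts to Ptprc counts was 0.862 ± 0.119 and 0.724 ± 0.0878 on the I3C diet with vehicle and papain, and 0.721 ± 0.160 and 0.410 ± 0.0866 on the AhR-poor diet (SD, n = 4 each). Between the diets with papain all 8 genes were lower relative to Ptprc, by 0.56 to 1.55 on the log2 scale, and so were 96.4% of all genes tested, since Ptprc itself differed by more. With vehicle all 8 and 95.9% of all genes were lower in this way between the diets, and with papain on the AhR-poor diet all 8 and 95.6%. The sign of these ratios is therefore set by Ptprc, and nothing is read from it about the 8 genes.

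**Figure D4:**
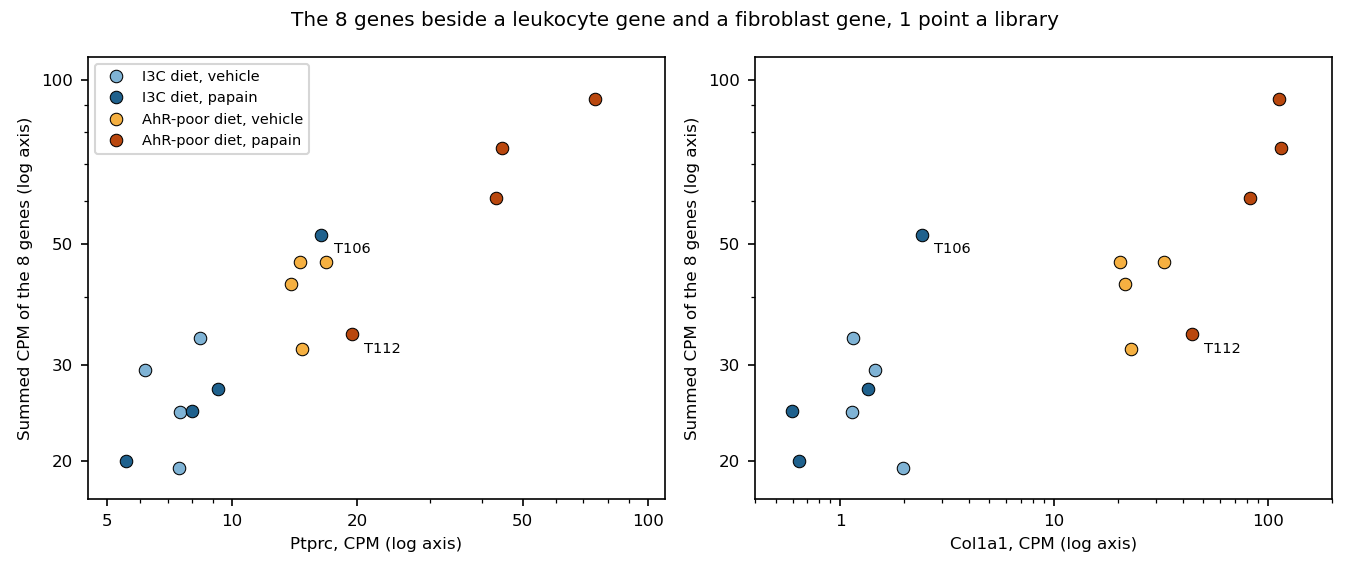
Summed CPM of the 8 genes in each library (vertical log axis) against Ptprc, a leukocyte gene (left), and Col1a1, a fibroblast gene (right), both in CPM on log axes, with T106 and T112 named. The sum was 19.4 to 33.5 CPM for I3C with vehicle and 34.1 to 92.0 CPM for AhR-poor with papain, and Col1a1 separates the diets in all 16 libraries.

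Genes that carry the signal of the receptor were described from a list. For this list and those after it, the shares of all genes called higher were 7.15% between the diets with papain, 1.59% with vehicle, and 6.04% and 3.69% with papain on the AhR-poor and I3C diets. Of 29 tested genes of T cell receptor signaling, 6 were called higher with papain when the diet was AhR-poor, and 0 with vehicle. The largest were Lcp2 (SLP-76, an adaptor, log2 fold change 3.06), Ptprc, Vav1 (a nucleotide exchange factor, 2.0) and Fyn (a kinase of the Src family, 1.74), all of which myeloid cells also express. The T cell kinases and adaptor Lck, Zap70 and Lat, named here after their values were seen, had log2 fold changes of 0.88, 1.21 and 1.17 and were not called. Their values with papain on the I3C diet changed by 0.02 to 0.08 from vehicle. The list had a median log2 fold change of 0.84 between the diets with papain, below that of the 8 genes. With papain on the AhR-poor diet 7 of the 29 were called higher, led by Lcp2, Syk, Ubash3b and Ptprc, and on the I3C diet Ubash3b and Syk were called higher and Cd5, a brake on receptor signals, lower (log2 fold change -1.05).

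Of 7 tested ligands and adaptors of NKG2D, 1 was called lower and 1 higher with papain on the AhR-poor diet, 0 on the I3C diet, and 1 higher between the diets with papain. H60c, a ligand that keratinocytes make, was at 111.7 ± 13.6 CPM with vehicle and 57.0 ± 14.3 CPM with papain on the I3C diet, and at 112.5 ± 15.9 and 51.8 ± 13.4 CPM on the AhR-poor diet (SD, n = 4 each). The groups with and without papain did not overlap on either diet. Without I3C, H60c fell by 1.12 on the log2 scale and was called (adjusted p = 0.000431), and with I3C the log2 fold change was -0.97 (adjusted p = 0.00114), short of the 2-fold limit. Between the diets it differed by 0.01 with vehicle and by -0.14 with papain, and neither was called. Tyrobp (DAP12), an adaptor that myeloid cells use as well, rose from 4.86 to 27.1 CPM with papain on the AhR-poor diet (log2 fold change 2.48, adjusted p = 0.000832). Hcst (DAP10), the adaptor of NKG2D in T cells, reached only 0.769 CPM in the highest group mean. Raet1e, another ligand gene, had 0 counts in every library of 3 of the 4 groups. Hcst and Raet1e were chosen after their values were seen.

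Among the partners of Il2rb, Il2rg, the common gamma chain, rose with papain on the AhR-poor diet (2.51 to 7.49 CPM, log2 fold change 1.58, adjusted p = 0.000149), as did Il2ra and Jak3. Il15, which keeps the cells alive, had group means of 2.93 and 2.75 CPM on the I3C diet with vehicle and papain and 3.51 and 5.71 CPM on the AhR-poor diet. It was called between the diets with papain (log2 fold change 1.05, adjusted p = 0.00549), together with Il2rg and Il7r, 3 of 13 genes of the list. On the I3C diet Il2ra rose with papain (log2 fold change 1.13), and Cish, a target gene of interleukin signals, had a log2 fold change of -1.09 (adjusted p = 0.000383).

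Of 27 genes of epidermal residence and activation, 7 were called higher with papain on the AhR-poor diet and 3 higher and 2 lower on the I3C diet. Tnfrsf18 (GITR, a costimulatory receptor) rose on both, from 18.0 to 52.7 CPM on the AhR-poor diet (log2 fold change 1.55) and from 17.02 to 49.2 CPM on the I3C diet (1.53). Tnfrsf9 (4-1BB) and the chemokine gene Ccl22 also rose on both. Jaml, a costimulatory receptor of epidermal T cells that neutrophils also carry, rose on the AhR-poor diet (log2 fold change 1.65, adjusted p = 0.000907) and had a log2 fold change of -0.07 on the I3C diet, a difference that was not itself called. Ahr was at 64.5 ± 16.7 and 51.3 ± 5.68 CPM on the I3C diet and 62.4 ± 5.12 and 55.5 ± 4.82 CPM without I3C, in each case with vehicle and papain (SD, n = 4 each), and its diet differences of -0.05 and 0.11 were not called. Of 22 effector genes, 10 were called higher with papain on the AhR-poor diet and 3 on the I3C diet. Gzmc, a granzyme, rose on both, by log2 fold changes of 2.50 and 2.02, from group means of 0.671 and 0.362 CPM with vehicle. Ccl3 and Ccl4, chemokines that neutrophils and monocytes also make, rose by 4.93 and 4.85 on the AhR-poor diet.

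Markers of other lymphocytes were also examined. Of 7 B cell genes 3 were called higher on the AhR-poor diet with papain. Ncr1, which marks natural killer cells, had 0 to 9 counts in every library, and Klrb1c 0 to 13. Other genes of the natural killer list were present, with 31 to 202 counts a library for Klrb1b and 12 to 144 for Klrd1. Nkg7 had 18 to 252 counts and Klrc1 15 to 90. Klrb1b, Klrd1, Nkg7 and Klrc1 were chosen after their values were seen. Of 19 tested genes of natural killer and innate lymphoid cells 2 were called higher on the AhR-poor diet with papain, Il1rl1 and Cd244a, a share not far from the 7.15% of all genes. Il1rl1, the interleukin 33 receptor that mast cells also carry, went from 0.306 to 37.4 CPM with papain on that diet. Klrk1 and Il2rb are shared by natural killer cells and dendritic epidermal T cells, and the CD3 genes and Cd247 are shared with other T cells. The count ratio of Klrk1 to Trdc stayed between 0.205 and 0.433, with an SD of 0.34 on the log2 scale against 0.73 for the CPM of Klrk1 itself. For Il2rb the ratio lay between 0.797 and 1.91, with an SD of 0.45 against 0.55, so that Il2rb varied relative to Trdc nearly as much as on its own. The ratio to Trdc lay between 0.0726 and 0.155 for Cd3d, 0.276 and 0.491 for Cd3e, 0.370 and 0.699 for Cd3g, 0.169 and 0.343 for Trdv4 and 0.177 and 0.331 for Cd247. The SD of the log2 ratio was 0.26 to 0.34 for these genes, against 0.74 to 0.86 for their CPM.

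The genes most like the 8 were found from each library's deviation from its group mean, over 16 libraries and 13018 genes of at least 1 CPM. Cd7, a surface protein of T cells, came first (Pearson r = 0.98, Spearman rho = 0.97), followed by Tcrg-C1 (r = 0.97), Ikzf1 (0.96), Tcrg-V5 (0.96), Ctsw (0.96), Avil (0.95), Sh2d2a (0.95), Ripor2 (0.95), Trat1 (0.94) and Atp2a3 (0.93). Without T106 and T112, the 2 libraries farthest from the median, the r of these 10 genes was 0.88 to 0.96. Ptprc ranked at 43 with r = 0.87, and at 0.73 without the 2 libraries. Lyz2 of monocytes and macrophages had r = 0.77 (0.60 without them), Col1a1 0.67 (0.34) and the Langerhans cell gene Cd207 0.48 (0.12). The keratinocyte genes Krt14 and Krt10 had r = -0.10 and -0.22, and Trbc2 had r = -0.56. These are descriptions over libraries that share their preparation, with no test.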

How the data were processed

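Raw counts per gene were deposited by the authors, 1 table of 50600 Ensembl identifiers in 16 libraries from TruSeq stranded mRNA, sequenced paired-end and aligned with STAR to mm10 per the labels. The counting tool, annotation release and strand setting are not given in the sources used here. The authors tested groups with DESeq2. Identifiers were matched to GENCODE M21 (50376 matched, 224 not), and lengths and coordinates come from it (GRCm38).

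Genes with at least 10 counts in all were tested with edgeR 4.0.16 (TMM scaling, robust quasi-likelihood F test, 4 group means, R 4.3.3), with Benjamini-Hochberg adjusted p over all 22155 genes. Genes were called at adjusted p below 0.01 when they also changed more than 2-fold. Shares of all genes are given for calls in the fits named beside them. They are not given for counts at other p limits or in other fits. SE is the log2 fold change over the square root of F. CPM used the same scaling. Single genes were also tested by an exact two-sided permutation of log2(CPM + 0.1). Totals of 22500821 to 51844375 counts set the precision, and scripts were tested on simulated data. No 2 libraries of a group agreed within sampling noise.

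The 8 genes and all lists were chosen with earlier results of these data known. Named genes were the 8, from each list up to 4 called genes a comparison with the largest change and a mean of at least 1 CPM, fixed receptor constant genes, Tcrg-V5, Ptprc, Cd4, Cd8a and Ahr, and the 10 genes most like the 8. Other genes named are said to be chosen after their values were seen, or mark a cell type. Alternatives were other scalings and filters, DESeq2 1.42.0, fits of the libraries compared, other thresholds, leaving out each library and scaling to Ptprc. Leaving out T106 and T112, the library number as a term and the diet difference averaged over injections were added after the values were seen.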

Additional observations from a re-analysis of the deposited data

Results flagged for a closer look

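Among 32 sets of 4 libraries (8 genes in 4 groups), the highest library of a set stood apart from its neighbours by more than Dixon's 95% limit in 3, where chance alone marks about 1 set in 20. All 3 were the same library, T106 of the I3C diet with papain. The 8 genes were measured in the same libraries and varied together, so the sets are not independent. The 3 flags therefore cannot be weighed against the rate of 1 in 20. It had 6.62 CPM of Cd3g against 2.03 to 2.44 in the rest of its group, 13.1 CPM of Trdc against 4.40 to 5.74, and 2.31 CPM of Cd247 against 1.02 to 1.23. Ptprc was at 16.4 CPM in T106 and at 5.55 to 9.27 CPM in the rest. What sets this library apart was not tested. No gene of the 8 had a diet by papain interaction past the threshold.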

How the results depend on the processing

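With papain, the number of the 8 genes called between the diets (2) was 5 with DESeq2, 5 at adjusted p below 0.05, 0 from only the 8 papain libraries, 8 without T106 and T112 and 0 with the library number as a term, and from 0 to 7 when single libraries were left out. Averaged over injections it (3) was 7 without T106 and T112, 0 with the library number, and 1 to 7 without single libraries. With papain on the AhR-poor diet it (0) was 1 without T106 and T112, 1 with the library number, and 0 to 1 without single libraries. Counts for papain on the I3C diet, the diets with vehicle and the interaction stayed at 0 under all alternatives run. Where no share of all genes is given above for a fit or limit, these counts have no background. Sign changes of single genes follow as log2 values. Papain on the I3C diet turned negative without T106 and T112 together for Cd3e (-0.58), Trdc (-0.29), Trdv4 (-0.15) and Klrk1 (-0.16), and with the library number for the same genes (-0.54, -0.27, -0.20 and -0.21), and Cd3e was also negative with library size only (-0.01). When single libraries were left out, these values ran from -0.58 to 0.25 for Cd3e, -0.70 to 0.12 for Cd3g, -0.30 to 0.36 for Trdc, -0.15 to 0.48 for Trdv4 and -0.16 to 0.36 for Klrk1, and the interaction of Klrk1 from -0.03 to 0.59. With the library number, which coincides with diet in the vehicle libraries so that the value rests on T106 and T112 and tests nothing there, the diet difference with vehicle was negative for Cd3d (-0.54), Cd3e (-0.78), Cd3g (-0.45), Trdc (-0.51), Trdv4 (-0.81), Klrk1 (-0.26), Il2rb (-0.60) and Cd247 (-0.25), and averaged over injections for Cd3e (-0.11), Trdv4 (-0.27) and Il2rb (-0.20). Relative to Ptprc, a scaling that lowers every gene that differed less than Ptprc (96.4% of all genes between the diets with papain), the differences of mean log2 level of the 8 genes in the order Cd3d, Cd3e, Cd3g, Trdc, Trdv4, Klrk1, Il2rb and Cd247 turned negative with papain on the AhR-poor diet (-0.96, -1.0, -0.91, -0.81, -0.93, -1.13, -0.64 and -1.24), between the diets with vehicle (-0.40, -0.29, -0.19, -0.28, -0.34, -0.15, -0.71 and -0.15) and between the diets with papain (-0.68, -0.85, -0.56, -0.84, -1.20, -1.07, -1.55 and -0.75), as did Trdc (-0.25), Trdv4 (-0.07) and Klrk1 (-0.21) with papain on the I3C diet. The cause was not tested. No paired analysis was possible because the groups share no replicate numbers. Depth limits Cd3d most, with 13 to 133 counts a library.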

Other observations

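Trbc2 was the receptor gene that went against the 8. It rose with papain on the I3C diet, its log2 fold change without I3C was 0.87, its levels did not overlap between vehicle and papain on either diet, and between libraries of a group it was low where the 8 were high (r = -0.56 over 16 libraries). Trac had a log2 fold change of -0.53 with papain on the I3C diet. Which cells the Trbc2 reads come from was not tested.

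Counts on Tcrg-V4, Tcrg-V6 and Tcrg-V1, gamma segments of other gamma delta T cells, came to 34, 30 and 45 over all 16 libraries. Of 11 genes of interleukin 17 producing gamma delta T cells, Cd163l1 (Scart1) rose with papain on both diets (log2 fold changes 1.47 and 1.22, adjusted p = 0.000503 and 0.0029), and Il17a stayed at group means of 0.0696 to 0.106 CPM. Without I3C, 5830411N06Rik of this list was also called higher with papain, with group means of 0.984 CPM for vehicle and 2.79 CPM for papain. Its mean in the I3C papain group was 1.22 CPM, and it was the 1 gene of the list called between the papain groups. Il17a and these segments were chosen after their values were seen.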
